A study of Mus musculus with 28 samples.

Results

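The experiment described here asked whether DFMO, an inhibitor of ornithine decarboxylase, changed gene expression by the same amount in 2 kinds of differentiating wild-type (WT) mouse CD4 T cell. Its members were chosen by genotype alone, as the 16 WT libraries among the 28 RNA-seq libraries of the series. They came from spleen CD4 T cells of 4 C57BL/6 animals, each of which gave 1 library per group, so that all comparisons were paired by animal. Naive cells were sorted (negative for CD44 and CD25 and positive for CD62L), activated on plate-bound anti-CD3 and anti-CD28 (1 µg/ml each), harvested at 68 h and then sorted as live cells, with no sort on a lineage marker named in the labels. The 4 groups were Th17n with 100 µM DFMO, Th17n without it (ctrl), iTreg with 100 µM DFMO and iTreg ctrl. Th17n stands for the non-pathogenic Th17 condition, in which 2 ng/ml TGF-beta 1 was combined with 25 ng/ml IL-6, and iTreg for induced regulatory T cells, which received 2 ng/ml TGF-beta 1 alone. The 12 remaining libraries, used here only for comparison, were the same 4 cultures of 3 C57BL/6 animals whose floxed JMJD3 gene (Kdm6b) was deleted by CD4cre (KO).

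Polyamines (putrescine, spermidine and spermine) are small charged metabolites that dividing cells make from ornithine, and DFMO blocks the first committed step. Spermidine also donates the group that turns eIF5A into its active, hypusinated form. Naive CD4 T cells given TGF-beta alone turn on Foxp3, the transcription factor that specifies regulatory T cells, whereas TGF-beta with IL-6, which signals through STAT3, steers them to the IL-17-producing Th17 fate.

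The value reported for each gene is the interaction: the log2 effect of DFMO (DFMO over ctrl) in Th17n minus the log2 effect of DFMO in iTreg. A positive interaction means that DFMO moved the gene further up, or less far down, in Th17n than in iTreg. Each interaction is given with its standard error (SE) from edgeR's quasi-likelihood fit and a p-value adjusted by Benjamini-Hochberg over all 10985 genes tested, and genes with an adjusted p under 0.05 are termed called. An interaction uses the same libraries as the 2 DFMO effects it is made of, so these are set side by side and not correlated with it. Levels are normalised read counts scaled by TMM library size (CPM), listed in the order of WT animals 1 to 4.

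Total estimated counts were 3590879 to 4496220 in Th17n DFMO, 4561014 to 4759290 in Th17n ctrl, 3233025 to 4066614 in iTreg DFMO and 2792847 to 4753768 in iTreg ctrl. No library stood apart from its group, the median correlation of log2 CPM with the other libraries of the group being 0.966 to 0.979. The 4 groups separated on the first 2 principal components, which held 45.4% and 24.1% of the variance. The cells carried T cell markers: the 7 genes of the CD4 T cell list (Cd3d, Cd3e, Cd3g, Cd4, Lck, Zap70 and Cd5) summed to 2600.3 to 2977 CPM in Th17n DFMO, 3120 to 3512 in Th17n ctrl, 2505 to 3323 in iTreg DFMO and 2465 to 3026 in iTreg ctrl. Cd4 itself was at 254 to 292 CPM in Th17n DFMO, 409 to 506 in Th17n ctrl, 447 to 574 in iTreg DFMO and 495 to 643 in iTreg ctrl. NK cell, neutrophil and erythroid marker lists summed to at most 3.48 CPM in any WT library, and 7 B cell markers to at most 20.8 CPM. CD8 and cytotoxic T cell markers were lower with DFMO without overlap, at 8.34 to 13.3 CPM in Th17n DFMO against 18.7 to 24.6 in Th17n ctrl, and 14.5 to 21.4 in iTreg DFMO against 21.5 to 32.4 in iTreg ctrl, and 0 of their 3 tested genes had a called interaction by edgeR. Antigen-presenting markers were lower with DFMO, at 80.8 to 90.5 CPM in Th17n DFMO against 269 to 391 in Th17n ctrl, and 53.9 to 81.7 in iTreg DFMO against 157 to 237 in iTreg ctrl. Most of that sum was H2-Ab1 and Cd74, while the myeloid marker Lyz2 was at 0 in all WT libraries except 1 of iTreg ctrl. H2-Ab1 (1.17 ± 0.25, edgeR adjusted p = 0.0023) and H2-Eb1 (1.89 ± 0.52, edgeR adjusted p = 0.0158) had a positive interaction, and the part of these marker lists in the results below was not tested. Since these are bulk samples, fewer cells of a type and less RNA per cell cannot be told apart.

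**Figure D1:**
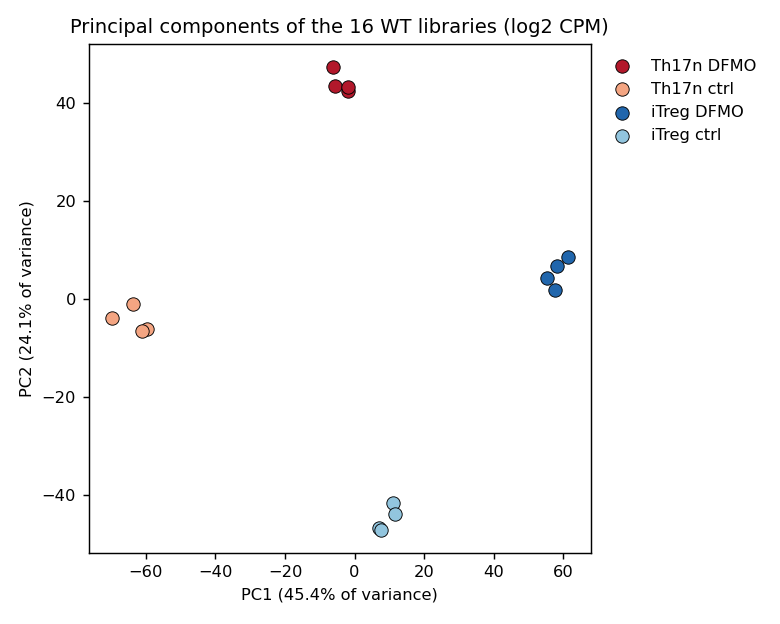
Principal components of log2 CPM over the tested genes in the 16 WT libraries, with PC1 (45.4% of variance) on the horizontal and PC2 (24.1%) on the vertical axis and 1 point per library coloured by group. The 4 libraries of each group lie together, and both cultures are displaced by DFMO along both axes.

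DFMO changed the expression of a large share of the genome in both cultures, and for 1354 of 10985 genes (12.3%) it did so by a different amount in Th17n than in iTreg. The interaction was positive for 528 genes (4.81%) and negative for 826 (7.52%), with at least a 2-fold difference for 122 and 189 of them. In Th17n DFMO raised 2703 genes (24.6%) and lowered 3290 (29.9%), 54.6% called in all, and in iTreg it raised 2663 (24.2%) and lowered 2795 (25.4%), 49.7% in all. Across all genes the 2 DFMO effects, which share animals but no libraries, had a Pearson correlation of 0.71 and a Spearman correlation of 0.74, as a description with genes not being independent replicates. The balance between positive and negative interactions depended on the scaling of the libraries. Upper-quartile factors gave 744 positive and 621 negative, fitting without a filter on low counts gave 683 and 685, and the deposited TPM gave 1056 and 299, where the median gene stood at 0.19 instead of -0.01. In fits that each left out 1 WT library the number of positive interactions ranged from 372 to 750. The lowest came beside 672 negative, without iTreg DFMO replicate 1, and the highest beside 681 negative, without iTreg DFMO replicate 2. Gene lists are therefore described by their median beside that of all genes, and their counts are to be read beside the shares of all genes given above. In 1289 of the 1354 called genes the interaction had 1 sign in all 4 animals, against 33.0% of all tested genes. This is a description only, since the same libraries made the calls. Fitted without the animal block, 959 genes were called, 955 of which were among the 1354.

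**Figure D2:**
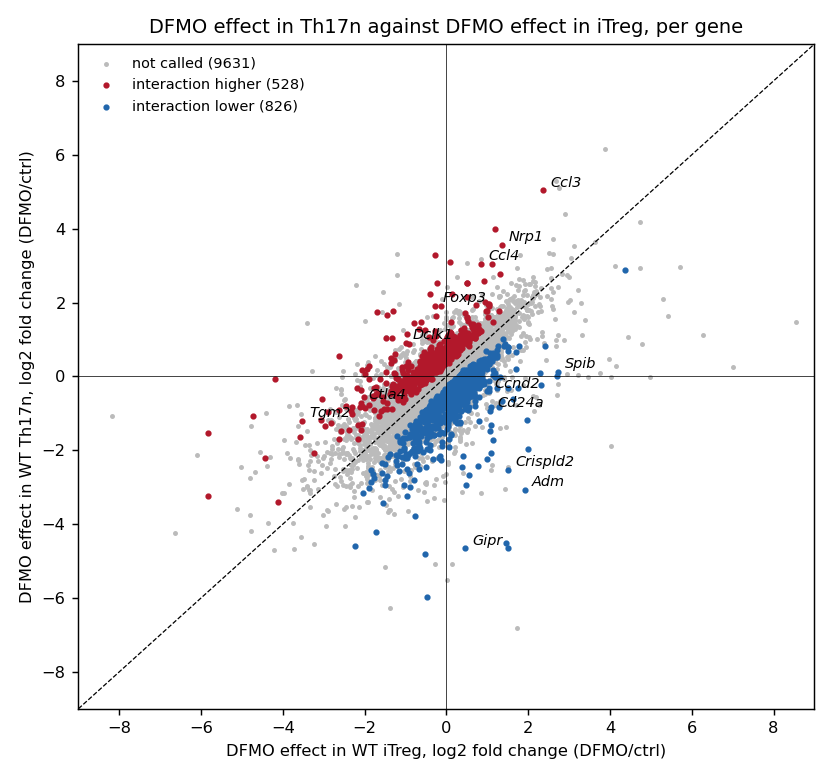
Log2 fold change under DFMO in WT iTreg (horizontal axis) and in WT Th17n (vertical axis), 1 point per tested gene, with the dashed line marking equal effects. Red points above the line are the 528 genes with a positive interaction and blue points below it the 826 with a negative one, and both colours include genes raised and genes lowered in both cultures.

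Most called genes responded in 1 culture and less, or not detectably, in the other. Of the 826 negative interactions, 299 were genes lowered by DFMO in Th17n and not called in iTreg, 197 were raised in iTreg and not called in Th17n, 175 were lowered in both and 58 were raised in both. The positive ones included 165 genes raised in Th17n alone by this threshold, 152 lowered in iTreg alone, 99 raised in both and 69 lowered in both. DFMO effects called in opposite directions were found for 128 genes, 39 raised in Th17n and lowered in iTreg and 89 lowered in Th17n and raised in iTreg. All 128 had a called interaction.

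DFMO raised Foxp3 in Th17n and not detectably in iTreg. Located at chrX:7573644-7595245 (GRCm38), it measured 28.9, 38.8, 40.8 and 39.8 CPM in Th17n DFMO libraries, against 14.7, 6.77, 10.2 and 6.92 CPM in Th17n ctrl libraries. In iTreg cells it measured 189.7, 219, 213 and 309 CPM with DFMO, against 216, 339, 236 and 335 CPM in ctrl. Every Th17n DFMO library exceeded every Th17n ctrl library, and Th17n with DFMO stayed below both iTreg groups. The iTreg groups overlapped, although each of the 4 animals was lower with DFMO. Its interaction was 2.20 ± 0.26 log2 (edgeR adjusted p = 2.04e-06), positive in 4 of 4 animals, from a DFMO effect of 1.92 in Th17n and -0.28 in iTreg (adjusted p = 0.103).

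Other genes of the regulatory T cell list split into both directions. Of 20 tested members 7 had a positive and 6 a negative interaction, and the list's median was -0.26 beside -0.01 for all genes (0.13 beside 0.19 on TPM). Nrp1, which encodes the surface receptor neuropilin 1, measured 35.8, 50.4, 35.6 and 36.9 CPM in Th17n DFMO, against 2.38, 5.19, 3.62 and 2.16 CPM in Th17n ctrl. In iTreg it measured 182, 191, 193 and 198 CPM with DFMO, against 46.0, 101, 52.9 and 117 CPM in ctrl. DFMO thus raised it in both cultures without overlap, 11.9-fold in Th17n and 2.55-fold in iTreg by edgeR, and the interaction was 2.22 ± 0.31 (adjusted p = 2.53e-05). Ctla4, the inhibitory receptor that regulatory T cells use to withhold costimulation, was lowered by DFMO in both, to 251, 288, 304 and 389 CPM in Th17n DFMO, against 399, 499, 520.4 and 604 CPM in Th17n ctrl. The iTreg libraries held 59.6, 72.7, 55.9 and 59.4 CPM with DFMO, against 253, 268, 259 and 273 CPM in ctrl. No group overlapped its counterpart, and the fall was smaller in Th17n (1.64-fold) than in iTreg (4.24-fold), with an interaction of 1.37 ± 0.13 (edgeR adjusted p = 1.28e-07).

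Members that went the other way included Il2ra, the high-affinity IL-2 receptor chain. It measured 1011, 1264, 1102 and 1261 CPM in Th17n DFMO, against 1482, 1711, 1724 and 1794 CPM in Th17n ctrl, and the interaction was -0.60 ± 0.08 (edgeR adjusted p = 7.47e-06). The iTreg groups, at 852, 1055, 924 and 1024 CPM with DFMO against 797, 1003, 908 and 988 CPM in ctrl, overlapped. Tnfrsf9 (4-1BB), a costimulatory receptor, was lowered by DFMO in both cultures and further in Th17n (-3.15) than in iTreg (-2.05), with an interaction of -1.10 ± 0.16 (edgeR adjusted p = 3.06e-05). The remaining called members were Socs2, Gpr83, Nt5e and Ikzf2 (positive) and Tnfrsf18, Ikzf4, Lrrc32 and Icos (negative).

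**Figure D3:**
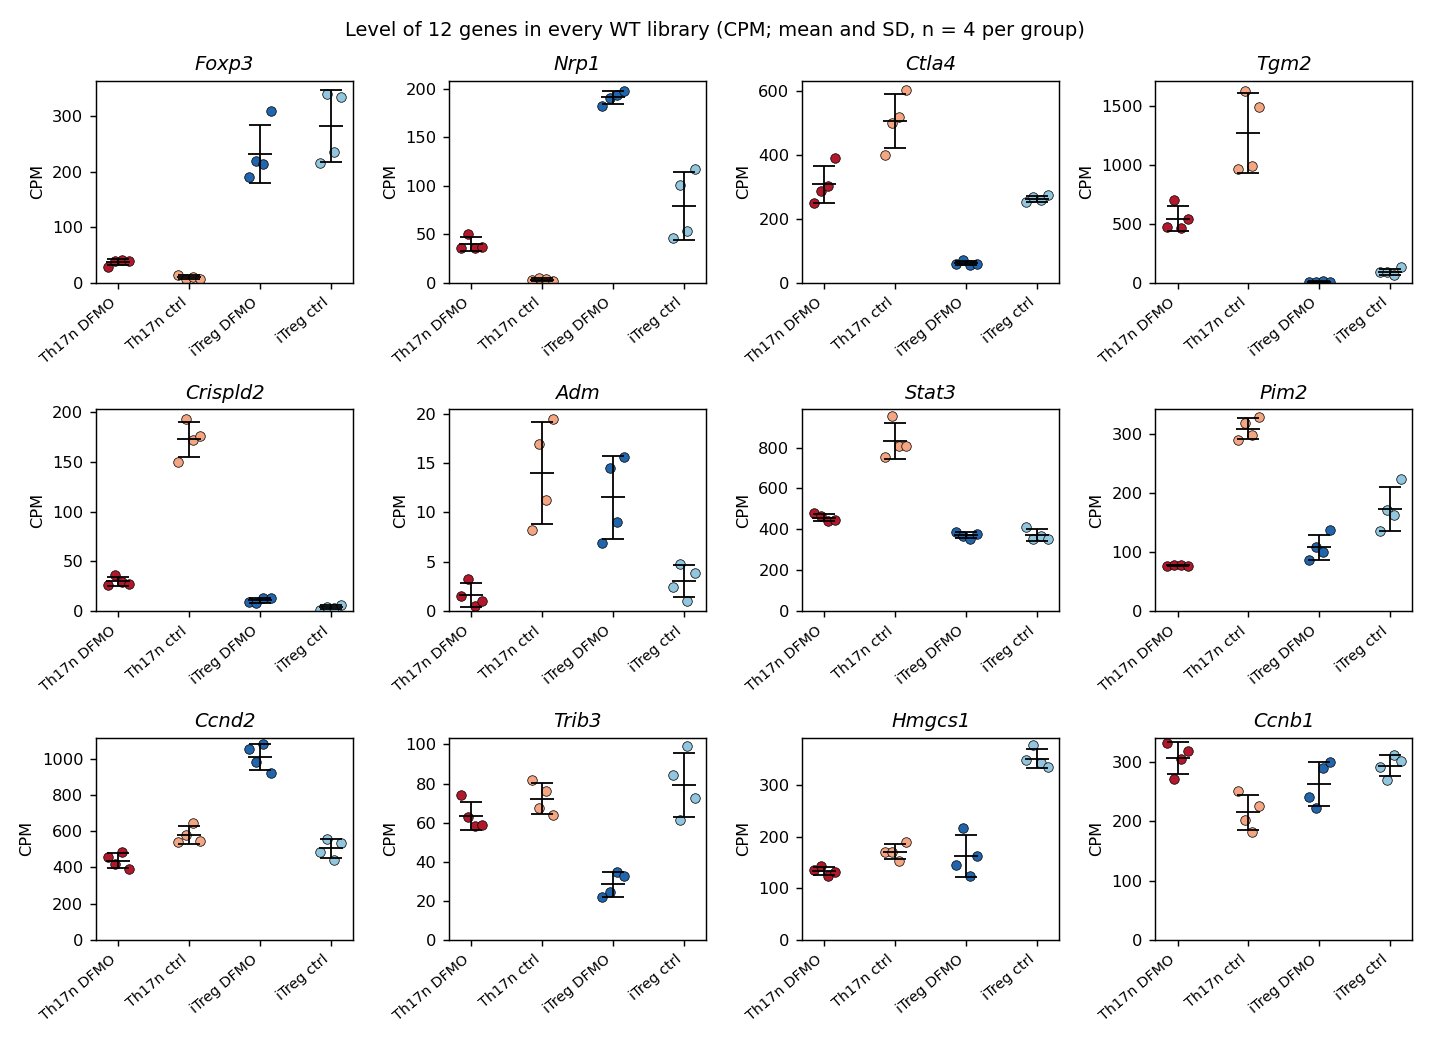
CPM of 12 genes in each of the 16 WT libraries, with groups on the horizontal axis (Th17n DFMO, Th17n ctrl, iTreg DFMO, iTreg ctrl) and bars giving the mean and SD of 4 libraries. Foxp3 separates with DFMO in Th17n and overlaps in iTreg, Crispld2 and Adm move in opposite directions in the 2 cultures, and Trib3 and Hmgcs1 show their larger fall with DFMO in iTreg.

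The interaction could be read for only some of the Th17 effector genes. Il17a, the cytokine that names the lineage, had 125 to 418 counts in Th17n DFMO libraries and 269 to 1161 in Th17n ctrl libraries, but 0 counts in all 4 iTreg DFMO libraries and 0, 5, 0 and 0 in iTreg ctrl. Il23r, the IL-23 receptor, had 12 to 23 counts in Th17n DFMO, 47 to 70 in Th17n ctrl, 0 in iTreg DFMO and 0, 0, 1 and 0 in iTreg ctrl. With iTreg libraries at or near 0, no DFMO effect could be read there, and the fitted interaction of either gene cannot be interpreted. Il17f was at 259, 642, 372 and 733 CPM in Th17n DFMO, against 620.0, 1024, 689.5 and 1332 CPM in Th17n ctrl, groups that overlapped although each of the 4 animals was lower with DFMO. Its iTreg levels were 0, 0.297, 1.20 and 1.74 CPM with DFMO, against 0, 4.74, 0.789 and 11.1 CPM in ctrl, and the interaction of 1.32 ± 0.76 was not called (edgeR adjusted p = 0.303).

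Of 19 tested genes of the Th17 programme, 1 had a positive interaction (Il6st) and 3 a negative one (Stat3, Irf4 and Il6ra), and the list's median equalled that of all genes at -0.01. In the TGF-beta response list 0 of 22 tested genes were called by edgeR, and its median was -0.01 too. On TPM that list had 1 gene positive and 3 negative.

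Genes of IL-6 and STAT3 signalling had mostly negative interactions. Of 20 tested members 10 were negative and 1 positive (Il6st, the shared receptor chain gp130), and the median was -0.48. On TPM 4 were negative and 1 positive, at a median of -0.26 beside 0.19 for all genes. Stat3, the transcription factor itself, measured 479, 465, 439 and 446 CPM in Th17n DFMO, against 754, 955, 806 and 809.5 CPM in Th17n ctrl, groups that did not overlap. For iTreg the values were 386, 369, 354 and 378 CPM with DFMO, against 414, 352, 366 and 355 CPM in ctrl, groups that did. The interaction was -0.86 ± 0.10 (edgeR adjusted p = 2.62e-06). Socs3, a feedback inhibitor induced by STAT3, stood at 204, 241, 197 and 198 CPM in Th17n DFMO, against 434, 524, 456 and 479 CPM in Th17n ctrl, and overlapped in iTreg at 36.6, 34.1, 41.5 and 36.1 CPM with DFMO and 35.1, 39.7, 40.5 and 48.4 CPM in ctrl, with an interaction of -1.05 ± 0.14 (edgeR adjusted p = 1.27e-05). Pim2, a serine/threonine kinase of cytokine-driven survival, was lowered in both cultures. It measured 75.8, 78.6, 78.8 and 77.2 CPM in Th17n DFMO, against 290.2, 318, 299 and 329 CPM in Th17n ctrl. In iTreg it measured 87.2, 108, 99.9 and 137 CPM with DFMO, against 136, 171, 163 and 223 CPM in ctrl, and the interaction was -1.31 ± 0.13 (edgeR adjusted p = 1.62e-07). The Pim2 groups were apart in Th17n and overlapped in iTreg when animals were not matched.

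Receptors of the same pathway moved with them in part. Il21r (-0.87 ± 0.15, edgeR adjusted p = 3.17e-04) was lowered in Th17n and raised in iTreg. Il6ra, the IL-6 receptor, had an interaction of -0.84 ± 0.24 (edgeR adjusted p = 0.0181), a call lost without the block (-0.82) and on TPM (-0.48). The Il6ra call was also lost in 6 of 16 fits that each left out 1 WT library, and without animal 1, 2 or 3. Il6st was lowered in iTreg (-0.75) and not called in Th17n (0.04), with an interaction of 0.79 ± 0.25 (edgeR adjusted p = 0.0385). Its call was lost in 7 of 16 fits that each left out 1 WT library.

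In the IL-2 and STAT5 list 9 of 17 tested genes had a negative interaction and 1 (Socs2) a positive one, at a median of -0.48 (-0.22 on TPM, with 5 negative and 1 positive). Ccnd2, the cyclin D2 gene, measured 456, 418, 485 and 392 CPM in Th17n DFMO, against 543, 581, 645 and 543 CPM in Th17n ctrl. The iTreg libraries held 1053, 984, 1081 and 921 CPM with DFMO, against 483, 556, 442 and 538 CPM in ctrl. DFMO lowered it in Th17n and raised it 2.00-fold in iTreg, without overlap in either, and the interaction was -1.40 ± 0.11 (edgeR adjusted p = 4.63e-09). Stat5a, the transcription factor downstream of the IL-2 receptor, was at 286, 243, 298 and 229 CPM in Th17n DFMO, against 505, 519, 619 and 519 CPM in Th17n ctrl, and overlapped in iTreg at 291, 233, 316 and 308 CPM with DFMO and 220.3, 280.2, 246 and 285 CPM in ctrl. Its interaction was -1.18 ± 0.13 (edgeR adjusted p = 1.48e-06). The IL-2 receptor chain Il2rg, Stat5b, Lta, Cish, Socs1 and Pim1 were the other negative members beside Il2ra. Cish, Socs1 and Pim1 stood in the STAT3 list as well, so the 2 lists were not separate sets of genes.

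The Th2 and Th9 list and the TNF superfamily list also had more negative than positive interactions. Of the 15 genes in the Th2 and Th9 list 7 could be tested, without Il4, Il5 and Il13, and 5 of them were negative (Il4ra, Ccr4, Irf4, Il24 and Il9) and 0 positive, at a median of -0.81 (-0.72 on TPM, with 2 negative and 1 positive). Il4ra, the IL-4 receptor chain, measured 519, 587, 473 and 515 CPM in Th17n DFMO, against 713, 987, 776 and 879 CPM in Th17n ctrl. Its iTreg levels were 282, 295, 307 and 361 CPM with DFMO, against 222, 236, 227 and 249 CPM in ctrl. It was lowered in Th17n and raised in iTreg without overlap, with an interaction of -1.08 ± 0.12 (edgeR adjusted p = 1.06e-06). Irf4, a transcription factor needed for Th2, Th9 and Th17 cells, followed the same course (-0.40 in Th17n, 0.35 in iTreg), with an interaction of -0.75 ± 0.14 (edgeR adjusted p = 5.52e-04) that was not called on TPM (-0.52). Il9 was raised by DFMO in both cultures, to 435, 366, 599 and 573 CPM in Th17n DFMO, against 58.4, 27.3, 126 and 64.1 CPM in Th17n ctrl. For iTreg the values were 181, 233, 193 and 229 CPM with DFMO, against 4.60, 16.4, 2.89 and 16.4 CPM in ctrl. Its interaction of -1.49 ± 0.46 (edgeR adjusted p = 0.0305) was not called in 8 of 16 fits that each left out 1 WT library.

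Of 20 tested TNF superfamily ligands and receptors, 6 had a negative interaction and 1 a positive one (Cd40lg), at a median of -0.39 (0.01 on TPM, with 5 negative and 1 positive). Ltb, which encodes lymphotoxin beta, measured 345, 445, 387 and 396 CPM in Th17n DFMO, against 304, 383, 393 and 395 CPM in Th17n ctrl, groups that overlapped. In iTreg it measured 754, 642, 942 and 968 CPM with DFMO, against 366, 352, 388 and 337 CPM in ctrl, a 2.27-fold rise without overlap, and the interaction was -1.09 ± 0.14 (edgeR adjusted p = 1.07e-05). Among 7 tested CD4 T cell markers 5 had a negative interaction by edgeR, Cd3e (-0.64), Cd4 (-0.56), Cd3g (-0.61), Cd5 (-0.44) and Cd3d (-0.37), and 0 a positive one. Genes of the Tfh list, which marks T cells that help B cells, had 4 of 14 tested members positive (Cd200, Cd40lg, Pdcd1 and Tox) and 1 negative (Icos), at a median of 0.53. On TPM 7 were positive and 1 negative (median 0.67), and without iTreg DFMO replicate 2 there were 8 positive and 0 negative. DESeq2 and the fit without the block gave 4 positive and 0 negative. Pdcd1, which encodes the inhibitory receptor PD-1, measured 121, 135, 126 and 135 CPM in Th17n DFMO, against 41.1, 47.4, 50.2 and 61.2 CPM in Th17n ctrl. It was at 80.03, 103, 94.1 and 114 CPM in iTreg DFMO, against 49.4, 62.3, 56.6 and 57.8 CPM in iTreg ctrl. The rise was without overlap in both cultures and larger in Th17n, with an interaction of 0.60 ± 0.13 (edgeR adjusted p = 0.0034). Cd200, the ligand of another inhibitory receptor, was raised in Th17n (0.46) and lowered in iTreg (-0.24), with an interaction of 0.70 ± 0.10 (edgeR adjusted p = 4.17e-05). In the Th1 list 3 of 14 tested genes were negative (Runx3, Il12rb1 and Cxcr3) and 0 positive, at a median of -0.50. Without Th17n DFMO replicate 3 only 1 was negative, and in KO animals 0 were negative and 1 positive. Il12rb1 lost its call in 9 and Cxcr3 in 8 of 16 fits that each left out 1 WT library. Runx3, a transcription factor of Th1 and cytotoxic cells, was at 72.4, 67.4, 62.2 and 76.7 CPM in Th17n DFMO, against 177, 189, 177 and 176 CPM in Th17n ctrl, without overlap. It was at 79.5, 31.8, 89.3 and 35.8 CPM in iTreg DFMO, against 91.3, 49.01, 82.6 and 52.6 CPM in iTreg ctrl, where the groups overlapped, and its interaction was -1.14 ± 0.25 (edgeR adjusted p = 0.00341).

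**Figure D4:**
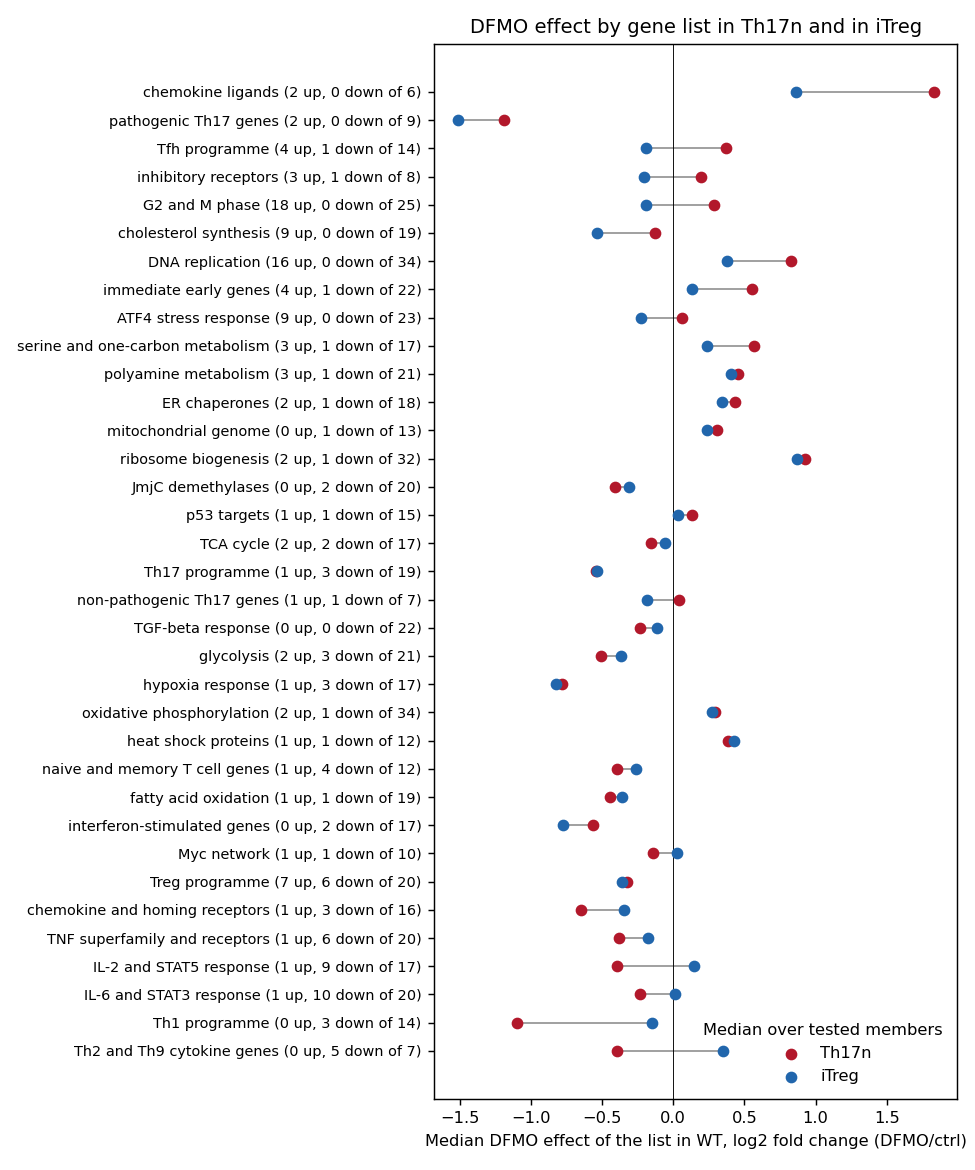
Median log2 effect of DFMO over the tested members of each gene list in WT Th17n (red) and in WT iTreg (blue), on the horizontal axis, with lists ordered by their median interaction. Labels give the number of members with a positive ("up") and a negative ("down") interaction; G2 and M phase, DNA replication, cholesterol synthesis and ATF4 genes have red points to the right of blue ones and no negative member.

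The largest positive interactions among genes averaging at least 10 CPM were those of Rnf180, Ccl3, Pygl, Tgm2, Nrp1, Ccl4, Foxp3, Bcl2a1d, Penk, Serpina3g, Dclk1 and Chst2. Ccl3 and Ccl4 encode the inflammatory chemokines MIP-1 alpha and beta, which recruit immune cells. Ccl3 measured 20.7, 12.99, 24.2 and 17.2 CPM in Th17n DFMO, against 1.08, 0.226, 0.638 and 0.216 CPM in Th17n ctrl. The iTreg libraries held 134, 85.2, 145 and 125 CPM with DFMO, against 31.7, 15.8, 27.1 and 20.2 CPM in ctrl, so that it was raised without overlap in both, and its interaction was 2.66 ± 0.45 (edgeR adjusted p = 2.09e-04). Its Th17n ctrl libraries held 5, 1, 3 and 1 counts, which makes the size of that interaction uncertain. Ccl4, at chr11:83662584-83664683 (GRCm38), measured 47.7, 25.1, 34.3 and 43.9 CPM in Th17n DFMO, against 4.76, 2.03, 6.17 and 4.98 CPM in Th17n ctrl. It was at 144, 127, 124 and 107 CPM in iTreg DFMO, against 63.7, 71.1, 79.2 and 64.5 CPM in iTreg ctrl, and its interaction was 2.20 ± 0.28 (edgeR adjusted p = 7.10e-06). Both chemokine genes stayed lower in every Th17n DFMO library than in any iTreg DFMO library.

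Tgm2, which encodes the protein-crosslinking enzyme transglutaminase 2, was lowered in both cultures but less in Th17n. It measured 474, 699, 462 and 536 CPM in Th17n DFMO, against 967, 1626, 986 and 1490.1 CPM in Th17n ctrl. Its iTreg levels were 4.35, 5.94, 14.1 and 7.30 CPM with DFMO, against 91.3, 86.96, 62.1 and 129 CPM in ctrl. Without overlap in either culture, the fall was 2.30-fold in Th17n and 11.5-fold in iTreg, with an interaction of 2.32 ± 0.27 (edgeR adjusted p = 1.90e-06). Rnf180, a ubiquitin ligase gene, had an interaction of 2.81 ± 0.58 (edgeR adjusted p = 0.00157), with 4.24, 3.08, 4.16 and 4.31 CPM in Th17n DFMO against 0, 0.226, 0.213 and 0.433 CPM in Th17n ctrl. Since the Th17n ctrl libraries held 0, 1, 1 and 2 counts of it, the size of this value is uncertain. The iTreg groups, at 22.2, 45.1, 26.8 and 36.8 CPM with DFMO and 7.26, 24.9, 8.42 and 19.2 CPM in ctrl, overlapped, with each of the 4 animals higher with DFMO. It was not called on TPM (0.45), where a pseudocount of 1 shrinks low levels. Chst2, a carbohydrate sulfotransferase gene, rose to 31.98 ± 4.35 CPM in Th17n DFMO, against 3.89 ± 1.40 CPM in Th17n ctrl, and to 7.09 ± 1.52 CPM in iTreg DFMO, against 3.19 ± 0.926 CPM in iTreg ctrl (mean ± SD, n = 4 each), with an interaction of 1.91 ± 0.37 (edgeR adjusted p = 9.52e-04). Pygl had 0, 0, 0 and 2 counts in iTreg DFMO libraries, so the size of its interaction, which turned negative on TPM (-0.56), is uncertain. Its call was lost in 9 of 16 fits that each left out 1 WT library, that of Serpina3g in 10 of 16 and that of Penk in 3. Bcl2a1d and Serpina3g belong to families of near-identical copies, so their share of reads is uncertain.

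The largest negative interactions, under the same conditions, were those of Gipr, Crispld2, C3, Fscn1, Spib, Tnfrsf8, Timp1, Kremen2, Gcnt2, Mgll, Nos2 and Cacnb3. Crispld2, at chr8:119992438-120052793 (GRCm38), encodes a secreted cysteine-rich protein. It measured 26.2, 36.6, 29.1 and 27.7 CPM in Th17n DFMO, against 150.1, 193, 172 and 176 CPM in Th17n ctrl. For iTreg the values were 8.95, 8.02, 13.5 and 12.9 CPM with DFMO, against 1.69, 4.74, 2.89 and 6.27 CPM in ctrl. DFMO lowered it 5.76-fold in Th17n and raised it 2.85-fold in iTreg, with no overlap in either, and the interaction of -4.04 ± 0.26 had the smallest adjusted p of the named genes (9.29e-11 by edgeR). Gipr, the receptor of the gut hormone GIP, was at 1.33, 4.40, 1.82 and 3.77 CPM in Th17n DFMO, against 51.3, 97.3, 52.97 and 86.99 CPM in Th17n ctrl, and below 1 CPM in every iTreg library, so that only its 25.2-fold fall in Th17n can be read. C3, the central complement component, fell to 3.23 ± 0.297 CPM in Th17n DFMO, against 44.6 ± 5.39 CPM in Th17n ctrl (mean ± SD, n = 4 each). In iTreg it measured 1.79, 2.67, 0.602 and 1.39 CPM with DFMO, against 3.63, 2.17, 1.32 and 4.53 CPM in ctrl, groups that overlapped, and the interaction was -3.02 ± 0.57 (edgeR adjusted p = 7.66e-04). These iTreg libraries held 7, 9, 2 and 4 counts of C3 with DFMO and 15, 11, 5 and 13 in ctrl, so the size of that interaction is uncertain.

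Spib, which encodes an Ets-family transcription factor, differed through iTreg. It was at 21.2, 45.4, 24.1 and 41.4 CPM in iTreg DFMO, against 3.87, 4.35, 1.84 and 11.5 CPM in iTreg ctrl, while all Th17n libraries stayed at 1.73 CPM or less. Its interaction of -2.59 ± 0.72 (edgeR adjusted p = 0.0166) was not called without the block (-2.57) and in 2 of 16 fits that each left out 1 WT library. Timp1, a metalloproteinase inhibitor gene, fell to 414 ± 32.5 CPM in Th17n DFMO, against 1146 ± 51.1 CPM in Th17n ctrl (mean ± SD, n = 4 each). Its iTreg libraries held at most 6.65 CPM, and its interaction of -2.53 ± 0.59 was not called without iTreg DFMO replicate 1 (-1.49) or by DESeq2 (-2.35). Nos2, the inducible nitric oxide synthase gene, was at 3.71, 3.74, 4.42 and 3.50 CPM in Th17n DFMO, against 16.7, 20.99, 17.4 and 18.6 CPM in Th17n ctrl. The iTreg libraries held 13.3, 14.5, 17.4 and 26.1 CPM with DFMO, against 16.7, 22.1, 13.4 and 25.4 CPM in ctrl, groups that overlapped, and its interaction was -2.12 ± 0.33 (edgeR adjusted p = 8.30e-05). Gcnt2 lost its call without the block (-2.19), without iTreg DFMO replicate 2 (-1.78) and without iTreg ctrl replicate 4 (-1.98), and Fscn1, the actin-bundling protein fascin, was not called on TPM (-1.40). Gcnt2 had 5, 12, 4 and 6 counts in iTreg DFMO and 2, 5, 2 and 1 in iTreg ctrl, so the size of its interaction is uncertain.

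Tnfrsf8, the receptor CD30, fell to 11.1, 12.99, 12.5 and 7.53 CPM in Th17n DFMO, against 46.9, 59.3, 46.6 and 43.1 CPM in Th17n ctrl, while no iTreg library exceeded 3.27 CPM. Its interaction was -2.55 ± 0.46 (edgeR adjusted p = 5.18e-04). Its iTreg libraries held 8, 11, 9 and 3 counts with DFMO and 10, 9, 5 and 4 in ctrl. The size of that interaction is therefore uncertain. Kremen2, a receptor of the Wnt inhibitor Dickkopf, measured 8.75, 7.27, 10.9 and 10.2 CPM in Th17n DFMO, against 31.6, 18.95, 21.1 and 22.7 CPM in Th17n ctrl. It was at 15.6, 8.31, 17.4 and 8.69 CPM in iTreg DFMO, against 9.68, 5.14, 6.05 and 2.09 CPM in iTreg ctrl, with an interaction of -2.41 ± 0.33 (edgeR adjusted p = 1.80e-05). The Kremen2 groups were apart in Th17n and overlapped in iTreg, where each animal was higher with DFMO. Mgll, the monoacylglycerol lipase gene, overlapped in Th17n at 32.9, 30.6, 27.8 and 26.6 CPM with DFMO and 20.1, 33.6, 28.1 and 28.6 CPM in ctrl. It rose in iTreg to 3.58, 4.45, 2.71 and 2.78 CPM with DFMO, against 0.484, 1.38, 0.526 and 0 CPM in ctrl, with an interaction of -2.17 ± 0.52 (edgeR adjusted p = 0.00593). Its iTreg ctrl libraries held 2, 7, 2 and 0 counts, so the size of that interaction is uncertain.

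The 250 bases before the annotated start of 6 of these genes are shown because they are the strongest interactions, 3 in each direction, with a promoter in the RefSeq table used (build GRCm38.p6), where 19 of the 24 genes were matched by symbol. Rnf180 has 2 starts in that table, of which the one listed first was used. Each is written 5′ to 3′ on the strand of its gene, and capitals mark matches, on either strand, to 5 motifs. These were CAGAC (the SMAD box of TGF-beta signalling, in 42.2% of 32851 promoters of that length), TTCNNNGAA (a STAT site, 7.02%), CACGTG (an E-box, 6.02%), TGANTCA (an AP-1 site, 6.75%) and AGGTCA (a nuclear receptor half-site, 14.0%).
Rnf180, higher interaction, chr13:105294486-105294735, minus strand: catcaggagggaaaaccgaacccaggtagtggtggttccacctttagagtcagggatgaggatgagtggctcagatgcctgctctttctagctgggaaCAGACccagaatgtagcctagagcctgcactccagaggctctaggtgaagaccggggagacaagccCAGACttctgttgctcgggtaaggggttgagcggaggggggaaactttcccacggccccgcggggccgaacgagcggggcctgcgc
Ccl3, higher interaction, chr11:83649379-83649628, minus strand: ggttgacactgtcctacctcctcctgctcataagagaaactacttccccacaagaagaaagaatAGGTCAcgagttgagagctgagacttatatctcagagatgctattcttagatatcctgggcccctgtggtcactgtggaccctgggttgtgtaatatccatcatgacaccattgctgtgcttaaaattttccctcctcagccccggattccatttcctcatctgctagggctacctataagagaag
Pygl, higher interaction, chr12:70227684-70227933, minus strand: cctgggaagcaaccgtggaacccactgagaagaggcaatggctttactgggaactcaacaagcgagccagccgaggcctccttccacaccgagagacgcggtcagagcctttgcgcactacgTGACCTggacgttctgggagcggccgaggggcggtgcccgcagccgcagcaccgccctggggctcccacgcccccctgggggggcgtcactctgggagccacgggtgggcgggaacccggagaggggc
Crispld2, lower interaction, chr8:119992188-119992437, plus strand: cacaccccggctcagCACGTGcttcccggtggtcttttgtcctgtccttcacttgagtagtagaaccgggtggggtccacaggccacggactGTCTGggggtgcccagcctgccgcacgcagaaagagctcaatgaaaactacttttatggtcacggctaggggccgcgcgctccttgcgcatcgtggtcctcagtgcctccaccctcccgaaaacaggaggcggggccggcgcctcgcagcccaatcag
C3, lower interaction, chr17:57228137-57228386, minus strand: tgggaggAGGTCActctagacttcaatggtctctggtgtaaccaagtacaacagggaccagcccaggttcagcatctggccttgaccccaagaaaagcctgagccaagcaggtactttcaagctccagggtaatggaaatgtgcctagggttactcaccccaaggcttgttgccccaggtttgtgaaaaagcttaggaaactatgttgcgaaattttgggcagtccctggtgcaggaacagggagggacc
Fscn1, lower interaction, chr5:142960105-142960354, plus strand: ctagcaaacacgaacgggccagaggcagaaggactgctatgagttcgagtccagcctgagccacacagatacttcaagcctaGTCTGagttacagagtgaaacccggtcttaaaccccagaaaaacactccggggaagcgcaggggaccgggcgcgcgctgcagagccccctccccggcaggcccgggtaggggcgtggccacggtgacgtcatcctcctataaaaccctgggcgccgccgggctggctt
A SMAD box stood in the windows of Rnf180 (2 matches), Crispld2 and Fscn1, a nuclear receptor half-site in those of Ccl3, Pygl and C3, and an E-box in that of Crispld2. Each match is a description of these letters, and both the SMAD box and the nuclear receptor half-site stood in genes of both directions. No STAT or AP-1 letters of this form were in these windows.

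Among genes that DFMO moved in opposite directions, Adm, the gene of the vasodilator peptide adrenomedullin, had the most negative interaction named. It measured 1.59, 3.30, 0.52 and 1.08 CPM in Th17n DFMO, against 8.22, 16.9, 11.3 and 19.5 CPM in Th17n ctrl. Its iTreg levels were 6.90, 14.5, 9.02 and 15.6 CPM with DFMO, against 2.42, 4.74, 1.05 and 3.83 CPM in ctrl. The groups did not overlap in either culture, and the interaction was -4.98 ± 0.40 (edgeR adjusted p = 4.63e-09), in a list, the hypoxia response, with 3 of 17 tested genes negative and 1 positive, at a median of -0.04. Cd24a, which encodes a surface glycoprotein, likewise measured 16.7, 23.1, 18.5 and 17.5 CPM in Th17n DFMO, against 29.6, 33.8, 31.3 and 50.4 CPM in Th17n ctrl. For iTreg the values were 156, 83.4, 183 and 96.6 CPM with DFMO, against 81.8, 39.1, 82.6 and 45.3 CPM in ctrl, where levels differed so much between animals that the groups nearly met while each animal was higher with DFMO. Its interaction was -1.99 ± 0.31 (edgeR adjusted p = 8.52e-05). Fscn1, Kremen2, Gcnt2 and Cacnb3 also fell in Th17n and rose in iTreg. In the other direction, Dclk1, a doublecortin-like kinase gene, rose 1.88-fold in Th17n and fell 1.99-fold in iTreg, with an interaction of 1.91 ± 0.28 (edgeR adjusted p = 4.90e-05). Slc1a4, a neutral amino acid transporter (0.60 and -0.48), Chac1, a glutathione-degrading enzyme (0.75 and -0.40), and Fanca, a DNA crosslink repair gene (0.68 and -0.37), behaved alike, as did Oip5 and Cep162.

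In the G2 and M phase list and the DNA replication list all called interactions were positive. Outside these lists the cyclin gene Ccnd2, given above, had a negative one (-1.40). Of 25 tested G2 and M phase genes 18 had a positive interaction and 0 a negative one, at a median of 0.50 (0.72 on TPM). Over the fits that left out 1 library or 1 animal the number of positive members ranged between 9 and 22. In Th17n DFMO raised 15 of the 25 and lowered 0, and in iTreg it raised 4 and lowered 11. Among all tested genes it raised 24.6% and lowered 29.9% in Th17n, and raised 24.2% and lowered 25.4% in iTreg. Ccnb1, the mitotic cyclin B1, measured 333, 272, 305 and 319 CPM in Th17n DFMO, against 252, 202, 182 and 226 CPM in Th17n ctrl. In iTreg it measured 241, 223, 290.2 and 300.0 CPM with DFMO, against 293, 271, 312 and 303 CPM in ctrl. The Th17n groups did not overlap and the iTreg groups did, with an interaction of 0.68 ± 0.13 (edgeR adjusted p = 6.95e-04). Ccnb2 (0.50 ± 0.11), Ccna2 (0.53 ± 0.11) and the spindle gene Tpx2 (0.57 ± 0.13) were called as well.

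DNA replication genes rose with DFMO in both cultures, 31 of 34 tested in Th17n and 28 in iTreg, and 16 of the 34 had a positive interaction and 0 a negative one (median 0.38, and 0.61 on TPM). Between 7 and 22 members were positive when 1 library or 1 animal was left out. Rrm2, the regulated subunit of ribonucleotide reductase, measured 482, 493, 470.0 and 450.5 CPM in Th17n DFMO, against 167, 116, 128 and 148 CPM in Th17n ctrl. The iTreg libraries held 537, 508, 482 and 504 CPM with DFMO, against 266, 241, 255 and 252 CPM in ctrl. Neither rise showed overlap, 3.41-fold in Th17n and 2.00-fold in iTreg, and the interaction was 0.77 ± 0.11 (edgeR adjusted p = 5.27e-05). With DFMO the levels of the 2 cultures overlapped, while all Th17n ctrl libraries were below all iTreg ctrl libraries. The replication licensing factor Cdc6 (0.81 ± 0.16), the large reductase subunit Rrm1 (0.43 ± 0.09) and Rfc5 (0.55 ± 0.12) were the next most firmly called members, Rfc5 not on TPM (0.67).

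Genes induced by the amino acid and stress regulator ATF4 had positive interactions where called. Of 23 tested, 9 had a positive interaction and 0 a negative one, at a median of 0.33 (0.55 on TPM), and DFMO raised 9 and lowered 5 of them in Th17n and raised 3 and lowered 11 in iTreg. Trib3, a pseudokinase induced by amino acid shortage, measured 73.9, 62.98, 58.0 and 58.7 CPM in Th17n DFMO, against 81.7, 67.2, 75.95 and 64.1 CPM in Th17n ctrl, and 21.7, 24.3, 34.9 and 32.7 CPM in iTreg DFMO, against 84.2, 61.3, 99.5 and 72.5 CPM in iTreg ctrl. The iTreg groups were apart and the Th17n groups overlapped, with an interaction of 1.30 ± 0.21 (edgeR adjusted p = 1.46e-04). Asns, asparagine synthetase, was at 255, 246, 242 and 219.9 CPM in Th17n DFMO, against 271, 198, 246 and 217 CPM in Th17n ctrl. Its iTreg levels were 252, 196, 267 and 216 CPM with DFMO, against 438, 318, 466 and 369 CPM in ctrl, and its interaction was 0.83 ± 0.12 (edgeR adjusted p = 2.49e-05). Gpt2, a mitochondrial alanine transaminase (1.25 ± 0.18), Chac1, Ddit3, Mthfd2, Pck2, Phgdh and Vldlr made up the rest, and Mthfd2 was not called without the block (0.42).

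Of 19 tested cholesterol synthesis genes DFMO raised 6 and lowered 8 in Th17n, and raised 1 and lowered 14 in iTreg, and 9 had a positive interaction and 0 a negative one (median 0.43, and 0.69 on TPM). Hmgcs1, the synthase that makes the pathway's HMG-CoA, measured 136, 142, 123 and 132 CPM in Th17n DFMO, against 171, 169, 154 and 190.4 CPM in Th17n ctrl. For iTreg the values were 144, 218, 125 and 163 CPM with DFMO, against 348, 379, 344 and 336 CPM in ctrl. It fell without overlap in both, 1.28-fold in Th17n and 2.19-fold in iTreg, with an interaction of 0.77 ± 0.13 (edgeR adjusted p = 3.30e-04). The later enzymes Sqle (0.55 ± 0.11) and Dhcr7 (0.74 ± 0.15) were raised in Th17n and lowered in iTreg.

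Of 21 tested genes of the polyamine pathway itself DFMO raised 15 and lowered 5 in Th17n, and raised 11 and lowered 5 in iTreg. Among all tested genes it raised 24.6% and lowered 29.9% in Th17n, and raised 24.2% and lowered 25.4% in iTreg. In this list 3 genes had a positive and 1 a negative interaction (median 0.16), where 12.3% of all genes were called. Without Th17n ctrl replicate 2 there was 1 of each. Odc1, the target of DFMO, measured 147, 115, 153 and 201 CPM in Th17n DFMO, against 110.3, 80.3, 98.1 and 105 CPM in Th17n ctrl, groups that did not overlap. In iTreg it measured 115, 119, 120.0 and 96.98 CPM with DFMO, against 76.5, 107, 84.2 and 98.9 CPM in ctrl, groups that did, and its interaction of 0.34 ± 0.19 was not called (edgeR adjusted p = 0.285). Srm, spermidine synthase, rose 9.29-fold in Th17n and 8.29-fold in iTreg, with an interaction of 0.16 ± 0.19 that was not called (edgeR adjusted p = 0.671). Slc7a1, the arginine transporter CAT1, was raised in Th17n (0.89) and not called in iTreg (0.16), with an interaction of 0.73 ± 0.12 (edgeR adjusted p = 1.62e-04). Eif5a, the protein that spermidine modifies, was the negative member. It measured 2722, 2578, 2610.4 and 2418 CPM in Th17n DFMO, against 2027, 1880.3, 1913 and 1865 CPM in Th17n ctrl. The iTreg libraries held 3163, 2591, 3076 and 2862 CPM with DFMO, against 1572, 1384, 1636 and 1412 CPM in ctrl. All groups were apart from their counterparts, the rise being 1.34-fold in Th17n and 1.95-fold in iTreg, with an interaction of -0.54 ± 0.08 (edgeR adjusted p = 3.69e-05). Azin1, the antizyme inhibitor (0.71 ± 0.21), lost its call without the block (0.71) and in 3 of 16 fits that each left out 1 WT library, and Sat1, the polyamine acetyltransferase (0.37 ± 0.12), in 5 of 16. Sat1 was lower with DFMO in both cultures, and less so in Th17n. It measured 217, 195, 223 and 204 CPM in Th17n DFMO, against 345, 337, 328 and 347 CPM in Th17n ctrl. In iTreg it measured 122, 130, 133 and 138 CPM with DFMO, against 242, 293, 253 and 310 CPM in ctrl.

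Other lists that DFMO moved in both cultures are given with their counts, beside 12.3% called among all genes. Of 32 tested ribosome biogenesis genes 28 rose in Th17n and 30 in iTreg, and 2 had a positive and 1 a negative interaction (12 positive and 0 negative on TPM, where all genes shifted up). Of 34 oxidative phosphorylation genes 21 rose in Th17n and 20 in iTreg, with 2 positive and 1 negative (13 and 0 on TPM). Of 21 glycolysis genes 15 fell in Th17n and 13 in iTreg, with 2 positive and 3 negative interactions (6 and 1 on TPM), the negative ones including Gapdh (-0.61 ± 0.10) and Pgam1 (-0.46 ± 0.09). Naive and memory T cell genes had 1 positive and 4 negative interactions of 12 (1 and 1 on TPM), such as the negative one of Satb1, a chromatin organiser (-0.99 ± 0.14). Of 22 immediate early genes 4 were positive and 1 negative, and Dusp4, a MAP kinase phosphatase, was at 114, 112, 109 and 111 CPM in Th17n DFMO, against 108, 123, 129 and 107 CPM in Th17n ctrl. In iTreg Dusp4 was at 137, 107, 120.0 and 127 CPM with DFMO, against 268, 284, 258 and 308 CPM in ctrl, so that only the iTreg groups were apart, with an interaction of 1.12 ± 0.13 (edgeR adjusted p = 1.52e-06).

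Seen from the other side, the interaction is also the change that DFMO made to the gap between Th17n and iTreg. With DFMO 3507 genes (31.9%) differed between Th17n and iTreg, against 4706 (42.8%) in ctrl. Per animal, the root mean square log2 difference between its Th17n and its iTreg library was 0.877 ± 0.037 with DFMO and 0.930 ± 0.052 in ctrl (SD, n = 4), smaller with DFMO in 4 of 4 animals. An exact two-sided sign-flip permutation test gave p = 0.125, the smallest that 4 animals allow. With a prior count of 0.5 in place of 2, which gives low counts more weight, the difference was -0.0134 and the gap was smaller in 1 of 4 animals. The size of the DFMO response itself was 0.860 ± 0.018 in Th17n and 0.833 ± 0.041 in iTreg (SD, n = 4), larger in Th17n in 3 of 4 animals (exact permutation p = 0.625). With a prior count of 5 and with libraries thinned to the smallest total it was larger in 4 of 4 animals (differences of 0.039 and 0.040, exact permutation p = 0.125, the smallest possible), and with a prior count of 0.5 in 1 of 4.

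Genes that mark each culture were taken from the KO ctrl libraries, so that no WT library chose them. Of 880 genes at least 2-fold higher in Th17n than in iTreg there, 221 had a negative WT interaction and 25 a positive one, at a median of -0.44 beside -0.01 for all genes. DFMO lowered 653 of these 880 genes in WT Th17n and 369 in WT iTreg, beside 29.9% and 25.4% of all tested genes. Of 621 genes at least 2-fold higher in iTreg, 92 had a positive WT interaction and 17 a negative one, at a median of 0.31. By these medians the gap between the cultures was narrower with DFMO for both lists. A gene at or near 0 in the culture where it is lower can hardly fall there. The part of such genes in these counts and medians was not tested.

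The KO animals gave a measure of the same interaction in other animals. There 350 genes were positive (3.19%) and 521 negative (4.74%), 7.93% called in all. Across all genes the WT and KO interactions, which share neither animals nor libraries, had a Pearson correlation of 0.46 and a Spearman correlation of 0.51, as a description over genes. Of the 1354 genes called in WT, 1288 (95.1%) had the same sign in KO, against 69.9% of all tested genes. Those called in both with the same sign numbered 548, which is 40.5% of the WT calls and 63.0% of the KO calls, and 1 gene was called in both with opposite signs. The difference between the WT and the KO interaction was called by edgeR for 0 genes (0.00%), with 578 at an unadjusted p under 0.05. Kdm6b was at 19.9 to 43.3 CPM in the KO libraries and 33.5 to 64.0 in the WT ones, as gene totals that do not isolate the deleted part, and its WT interaction was 0.04 ± 0.18 (edgeR adjusted p = 0.924).

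**Figure D5:**
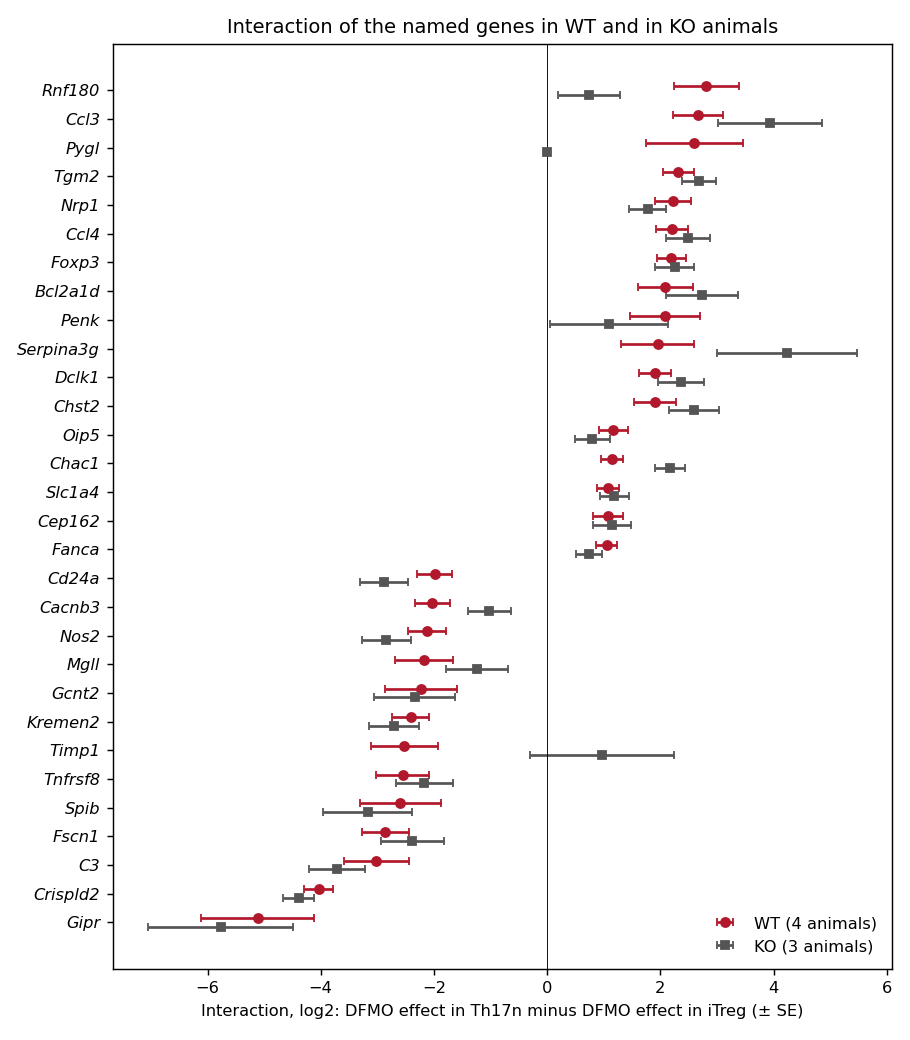
Interaction (log2, DFMO effect in Th17n minus that in iTreg) with its SE for the genes named by size or by opposite DFMO effects, in WT (red circles, 4 animals) and KO (grey squares, 3 animals). Most genes lie on the same side of 0 in both genotypes, such as Foxp3 at 2.20 in WT and 2.25 in KO, while Timp1 lies on opposite sides and Pygl is near 0 in KO, drawn without a bar because no SE can be derived from a value that close to 0. Timp1 stood at 6.65 CPM or less in WT iTreg libraries and 1.45 CPM or less in KO ones, so its DFMO effect in iTreg, and with it this contrast, is uncertain.

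The genes described first above are given in the KO animals too. Foxp3 in KO animals measured 34.4, 37.1 and 33.3 CPM in Th17n DFMO, against 8.25, 8.36 and 3.78 CPM in Th17n ctrl. In KO iTreg it was at 382, 355 and 318 CPM with DFMO, against 259, 343 and 314 CPM in ctrl, and the KO interaction was 2.25 ± 0.35 (edgeR adjusted p = 1.18e-04). Crispld2 in KO animals measured 31.1, 36.6 and 37.5 CPM in Th17n DFMO, against 226, 244 and 299 CPM in Th17n ctrl. In KO iTreg it was at 12.5, 18.1 and 16.6 CPM with DFMO, against 5.07, 4.52 and 6.69 CPM in ctrl, a KO interaction of -4.39 ± 0.28 (edgeR adjusted p = 3.07e-11). As in WT, the groups of both genes were apart in Th17n, and those of Crispld2 in iTreg too, while those of Foxp3 overlapped in iTreg. Matched by animal, Foxp3 in iTreg was higher with DFMO in each KO animal but lower in each WT animal. Adm (-4.16 ± 0.40), Nrp1 (1.78 ± 0.33), Ctla4 (1.10 ± 0.16), Stat3 (-0.66 ± 0.12), Ccnd2 (-1.14 ± 0.13) and Eif5a (-0.72 ± 0.09) were called in KO in the direction of WT.

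By list, the KO interaction was negative for 10 of 20 STAT3 genes and 9 of 17 STAT5 genes, and positive for 15 of 34 DNA replication genes and 10 of 23 ATF4 genes. It was positive for 4 of 25 G2 and M phase genes, at a median of 0.36, and for 1 of 19 cholesterol synthesis genes, at a median of 0.19. Among all tested genes 4.74% were negative and 3.19% positive in KO. Hmgcs1 had a KO interaction of 0.39 ± 0.16 (edgeR adjusted p = 0.127) and Ccnb1 one of 0.26 ± 0.15 (edgeR adjusted p = 0.327), neither called. The WT minus KO differences of 0.38 ± 0.21 for Hmgcs1 and 0.41 ± 0.20 for Ccnb1 were not called either (edgeR adjusted p = 0.93 and 0.918), so that a difference between the genotypes in these lists was not shown.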

How the data were processed

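Gene expression was measured by full-length RNA-seq with paired reads of 75 bp, per the labels' protocols. The authors deposited estimated counts and TPM for 20891 genes, both made by kallisto (version not given in the sources used here) on build GRCm38, per the submitters' processing notes. No pair of libraries was identical, and 67.2% of the estimated counts were whole within 0.001. Gene positions came from GENCODE M21, which matched all 20891 names. Strand was not used, so reads of overlapping genes may be mixed.

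After rounding, a model was fitted with edgeR 4.0.16 in R 4.3.3, using TMM scaling, edgeR's filter on low counts, 8 group means and the animal as a block over all 28 libraries (15 residual and 11.4 prior degrees of freedom, common dispersion 0.0120). The shared spread therefore includes the KO libraries. SEs were derived from the quasi-likelihood F, and a prior count of 2 was added for log2 CPM. The labels give the animal of each library, which is where the pairing comes from. Deviations from group means correlated at a median of 0.101 between libraries of 1 animal and -0.016 between animals, and exceeded 0.1 in 12 of 24 same-animal pairs. With the animal as a block, edgeR p-values rest on the spread left between libraries after group and animal levels were fitted. That spread was pooled over all 28 libraries and shared in part across genes. The permutation p-values rest on the 4 animals. Deposited TPM were tested as log2(TPM + 1) with limma 3.58.1 and counts also with DESeq2 1.42.0, as alternatives.

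Genes were named by rule: Foxp3, Il17a, Il17f, Il23r, Odc1, Srm and Kdm6b always; the 12 largest called interactions each way with a mean of at least 10 CPM and 1 sign in all 4 animals; up to 6 each way with opposite DFMO effects; and up to 4 called members of each list. Other list members are named to account for small counts, chosen with their values in view. Unnamed gene models (Gm and Rik names) entered counts alone, and some genes covered by the rule are not reported here. The members, comparisons and gene lists were chosen with earlier results of these data known, so no list is independent evidence of its direction.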

Additional observations from a re-analysis of the deposited data

Results flagged for a closer look

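A different DFMO effect in Th17n than in iTreg was called by edgeR's interaction test for 1354 genes in WT animals and for 871 genes in KO animals, and these are the results described above.

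In 5 of 130 named genes 1 animal's interaction lay apart from those of the other 3, beyond Dixon's 95% critical value for 4 samples, where chance gives about 1 such gene in 20. Gcnt2 was at -1.84 in WT animal 2, Oip5 at 1.04 in animal 1, Egr1 at 0.31 in animal 1, Il12rb1 at -0.72 in animal 3 and Tnfrsf25 at -1.56 in animal 3, each as a double difference of log2 CPM. The other 3 animals of each gene had the same sign.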

How the results depend on the processing

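The count of 1354 interaction genes was 959 without the animal block (replicate block), 1091 with only WT libraries, 1271 with DESeq2, 1334 with RLE factors, 1365 with upper-quartile factors, 1368 with no filter and 1355 on TPM. The TPM fit shared 636 genes with it. Leaving out 1 WT library or 1 WT animal gave 704 to 1431 genes, with 856 without animal 1, 704 without animal 3, 1106 without animal 2 and 946 without animal 4, where fewer libraries were fitted. Th17n and iTreg DFMO counts stayed at 4846 to 5995 in the settings run, and the KO interaction at 590 to 867. The size of the DFMO response in Th17n minus that in iTreg turned to -0.00512 with a prior count of 0.5, and was -0.00207 to 0.0414 when 1 animal was left out. Of 123 called named genes 66 kept their call in each setting run and 90 in each fit without 1 library. Kdm6b was -0.025 to 0.19 when a library or animal was left out. The fitted values of Il23r and Il17a cannot be interpreted, with iTreg counts at or near 0, and changed sign: Il23r gave -1.01 with DESeq2, -1.05 on TPM and -1.67 to 0.53 in the left-out fits, and Il17a -1.18 on TPM and -1.44 to 2.63. Pygl, with 0, 0, 0 and 2 counts in iTreg DFMO libraries, was -0.56 on TPM. For Kdm6b and Pygl the cause was not tested. Depth limits genes near 0 in 1 culture, whose interaction cannot be read.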
